A study of Homo sapiens with 4 samples.

Results

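The genes described here are 10 inflammatory cytokines and chemokines that tumour cells secrete, taken from the deposited count table by gene symbol: IL1A, IL1B, CXCL8, CXCL1, CXCL2, CXCL3, IL6, IL11, LIF and CSF2. All 10 were found among the 58735 genes of the table, and all 10 passed the filter on low counts, a mean of at least 1 CPM (reads scaled to a common library total) over the 4 libraries. RNA came from cultures of MDA-MB-231, a long-established cell line from a human triple-negative breast cancer, transduced with a Tet-On histone H2B-eGFP reporter. Every population, Bulk included, carried the reporter, received doxycycline at 5 μg/ml for 3 days, was stained with the dyes Claret and Violet, and was then chased for 12 days, during which label is diluted by division. The brightest 1% of cells for Claret, for eGFP or for Violet were sorted as 3 slow-cycling populations, and Bulk was sorted with no fluorescence gate. Each population gave 1 library, so the differences below were not checked in replicates, and all intervals cover counting error only. Libraries carry the names in their titles, which are also the column names, and 3 values in a row follow the order Claret, eGFP, Violet. The treatment field of every sample names another sort than its title does.

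The interleukin-1 cytokines encoded by IL1A and IL1B bind the same receptor and switch on NF-κB. CXCL1, CXCL2, CXCL3 and CXCL8 are chemokines that draw neutrophils through CXCR2, and CXCL8 also binds CXCR1. IL6, IL11 and LIF encode cytokines that share the receptor subunit gp130 and act through STAT3, whereas CSF2 encodes GM-CSF, a growth factor of myeloid cells. Genes of this kind are known as targets of NF-κB, AP-1 and C/EBP factors, and many of their mRNAs are short-lived because AU-rich elements in the 3′ UTR recruit decay factors. Secretion of IL-6 and IL-8, the products of IL6 and CXCL8, is a known trait of triple-negative breast cancer lines.

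Summed counts per library ranged from 15508179 to 16976909, and 0 reads allow up to 0.177 to 0.19 CPM, the level of 3 reads. All 8 marker genes of MDA-MB-231, among them VIM, CD44 and AXL, were at 1 FPKM (reads scaled to gene length and library total) or more in every library. The 7 leukocyte markers, a class of cells known to make these factors, summed to 0.481 to 0.638 FPKM, with CD3E at 0 reads in all 4. The 3 endothelial markers summed to 0.519 to 0.863 FPKM. The 6 fibroblast markers summed to 3.67 FPKM in Bulk and 5.73 to 6.01 FPKM in the slow-cycling libraries, with COL1A2 and LUM at 0 reads in all 4 and most of the difference in PDGFRB (201 reads in Bulk, 421 to 431 elsewhere). VWF, of the endothelial markers, also stood higher (4 reads in Bulk, 19 to 24 elsewhere). The part of these markers' cells in the results below was not tested. The 7 luminal or epithelial markers summed to 14.5 to 15.9 FPKM, with PGR at 0 reads. Of these 7, 3 were at 1 FPKM or more in every library. They were ERBB2 (8.54 to 9.06 FPKM), FOXA1 (3.69 to 4.07 FPKM) and GATA3 (1.35 to 1.78 FPKM).

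RefSeq promoters (GRCh38.p14) were matched for 9 of the 10 genes, all but LIF, and the 250 bases before each start were searched on both strands. The AP-1 motif TGANTCA was found in IL1A, CXCL8 and IL11, against 6.57% of 35116 promoters in the table. These 3 genes were among those called higher than Bulk below, as were IL1B and CXCL3, in which TGANTCA was not found. The 160 bases before the starts of IL1A, CXCL8 and IL11 are shown 5′ to 3′ with motif matches in capitals. The capitals mark TGANTCA in all 3 genes and, in CXCL8, also the NF-κB motif GGANTTTCC and TATAAA. RefSeq lists 2 starts for IL1A, of which the one with more matches is shown.
IL1A (chr2:112784401-112784560, minus strand): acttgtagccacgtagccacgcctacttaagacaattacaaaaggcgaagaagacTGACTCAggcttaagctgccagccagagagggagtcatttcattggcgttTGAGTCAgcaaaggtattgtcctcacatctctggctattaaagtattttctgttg
CXCL8 (chr4:73740409-73740568, plus strand): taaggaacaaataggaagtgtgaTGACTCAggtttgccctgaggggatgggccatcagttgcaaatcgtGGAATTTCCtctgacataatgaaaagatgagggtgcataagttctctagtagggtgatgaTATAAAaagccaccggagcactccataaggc
IL11 (chr19:55370464-55370623, minus strand): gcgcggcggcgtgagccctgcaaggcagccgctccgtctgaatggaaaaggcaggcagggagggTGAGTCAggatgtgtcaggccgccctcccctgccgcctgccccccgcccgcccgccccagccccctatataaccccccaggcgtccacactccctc

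The motif GGANTTTCC was found in CXCL8, CXCL1, CXCL2, CXCL3 and IL6, against 1.45% of all promoters. The longer κB consensus, which overlaps it, was found in CXCL1, CXCL2, CXCL3 and IL6, against 9.96%. The windows of CXCL1, CXCL2 and CXCL3, which are shown because these paralogs carry the same κB match and did not have the same calls below, share runs of up to 42 identical bases (CXCL1 and CXCL2). Capitals mark the κB matches.
CXCL1 (chr4:73869233-73869392, plus strand): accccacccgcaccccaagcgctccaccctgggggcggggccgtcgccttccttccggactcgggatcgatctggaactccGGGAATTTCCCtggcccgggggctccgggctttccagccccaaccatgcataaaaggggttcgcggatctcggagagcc
CXCL2 (chr4:74099196-74099355, minus strand): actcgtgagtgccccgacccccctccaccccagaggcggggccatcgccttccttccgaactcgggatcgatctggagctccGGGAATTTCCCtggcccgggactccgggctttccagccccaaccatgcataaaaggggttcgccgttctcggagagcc
CXCL3 (chr4:74038690-74038849, minus strand): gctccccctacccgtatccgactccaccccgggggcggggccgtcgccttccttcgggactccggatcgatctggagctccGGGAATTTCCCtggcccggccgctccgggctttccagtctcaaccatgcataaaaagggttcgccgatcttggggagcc
The C/EBP motif TTGCNNAA was found in IL6, CXCL2 and IL1B (9.05% of all promoters), and TATAAA in CXCL8 and IL1A (10.7%). The TATAAA match lay at bases -31 to -26 from the start in CXCL8. In IL1A it lay at bases -239 to -234 from the start that is not shown. None of the motifs searched was found in the window of CSF2. A match is a run of letters and was not tested as a binding site.

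Compared with Bulk, IL1A, IL1B and CXCL8 were higher in all 3 slow-cycling libraries, and CXCL3 and IL11 were higher in Claret and eGFP. LIF was 1.49-fold to 1.79-fold above Bulk, which is under the threshold of 2-fold, and CSF2 and CXCL1 had intervals that included no difference in every library. A gene was called when its reads differed between 2 libraries by an exact binomial test (Benjamini-Hochberg adjusted p under 0.05 over all 14585 genes kept) and the log2 ratio had a size of 1 or more. This test compares libraries, not conditions. For Claret, 5 of the 10 genes passed as higher, against 11.2% of all genes kept, and 0 as lower, against 6.67%. In eGFP the same 5 were higher (11.9% of all genes kept) and 0 were lower (7.60%). In Violet 3 were higher (11.3%) and 0 were lower (7.01%). IL1A, IL1B and CXCL8 made up the 3 of 10 that were called higher in all 3 libraries, against 8.36% of all genes kept. Over the 10 genes the median log2 ratios were 1.01, 0.92 and 0.59, where the medians over all genes kept were -0.01, -0.01 and 0.00. If groups are read from the treatment field instead, the library titled Violet is the un-gated one. Against it, 0 of the 10 genes are called higher in any library, and 3 are called lower in the library titled Bulk, which that field names Claret. All 3 comparisons share the 1 Bulk library, so they are not independent. In bulk RNA, more cells that express a gene and more RNA per cell cannot be told apart.

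**Figure D1:**
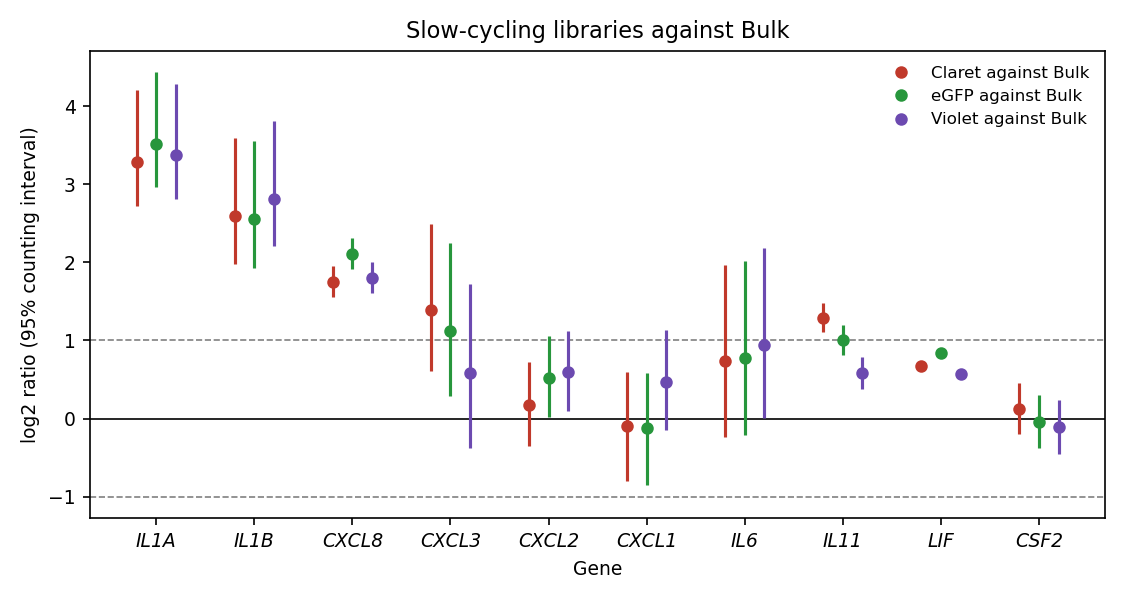
The log2 ratio to Bulk of each of the 10 genes (x axis) in Claret, eGFP and Violet (points, prior count 2), with 95% exact counting intervals of the read ratio (lines) and dashed lines at the 2-fold threshold. IL1A, IL1B and CXCL8 lie above the upper dashed line in all 3 libraries, while CSF2 and CXCL1 have intervals across 0.

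IL1A (ENSG00000115008, GRCh38 chromosome 2, 112773915 to 112784590, minus strand) was covered by 18 reads in Bulk, against 208 (Claret), 229 (eGFP) and 205 (Violet). Bulk was the low library and the other libraries lay close together. After scaling of library sizes IL1A was 10.7-fold higher than Bulk in Claret (95% interval 6.63 to 18.5), 12.6-fold in eGFP (7.81 to 21.7) and 11.4-fold in Violet (7.01 to 19.6). Its level per gene length went from 0.545 FPKM in Bulk to 5.77, 6.75 and 6.01 FPKM. Among protein-coding genes kept, IL1A stood above 9.41% of genes in Bulk and above 48.8% to 54.1% in the slow-cycling libraries.

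IL1B (ENSG00000125538, chromosome 2, 112829751 to 112836903, minus strand), the next protein-coding gene 45.2 kb from IL1A, was covered by 16 reads in Bulk, against 115 (Claret), 104 (eGFP) and 125 (Violet). Bulk was again the low library. It was 6.68-fold higher in Claret (3.94 to 12.1), 6.45-fold in eGFP (3.79 to 11.7) and 7.79-fold in Violet (4.61 to 14.1). Both interleukin-1 genes showed the widest differences from Bulk of the 10 genes. CKAP2L, a spindle gene 9.24 kb from IL1A, went from 1097 reads in Bulk to 211 to 276 in the slow-cycling libraries and was called lower in all 3, and IL37, on the far side of IL1B, had 2 to 4 reads in every library, too few to show a change.

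CXCL8 (ENSG00000169429, chromosome 4, 73740506 to 73743716, plus strand) reached 964 (Claret), 1153 (eGFP) and 928 (Violet) reads, from 265 in Bulk. Bulk was the low library and eGFP the high one. It was 3.38-fold higher in Claret (2.95 to 3.89), 4.32-fold in eGFP (3.78 to 4.95) and 3.49-fold in Violet (3.04 to 4.02). With 7.5 FPKM in Bulk, CXCL8 could not be told from IL11 (7.88 FPKM) by its counting interval. At 25 to 31.7 FPKM in the slow-cycling libraries it was second to LIF among the 10 genes.

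CXCL3, CXCL2 and CXCL1 were read far less often than CXCL8. CXCL3 (ENSG00000163734, chromosome 4, 74036589 to 74038807, minus strand) was found in 43 (Claret), 33 (eGFP) and 22 (Violet) reads, against 14 in Bulk. It was 2.85-fold higher in Claret (1.53 to 5.65) and 2.34-fold higher in eGFP (1.22 to 4.73), both called (exact binomial test, adjusted p = 0.000847 and 0.0135). On the scale log2(FPKM + 1) neither passed the 2-fold threshold (0.61 in Claret and 0.46 in eGFP), and with a prior count of 5 the eGFP value was 0.995. In Violet the CXCL3 ratio was 1.57 (0.767 to 3.31), which was not detectable at this depth.

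CXCL2 (ENSG00000081041, chromosome 4, 74097035 to 74099293, minus strand) had closer values, with 55 reads in Bulk against 67 (Claret), 80 (eGFP) and 84 (Violet). The CXCL2 ratios to Bulk were 1.13 (0.78 to 1.65), 1.44 (1.01 to 2.07) and 1.52 (1.07 to 2.18), none of them called. CXCL1 (ENSG00000163739, chromosome 4, 73869393 to 73871242, plus strand) counted no more reads in Claret (37 reads) or eGFP (34) over Bulk (37) and 52 reads in Violet, with ratios of 0.929, 0.912 and 1.40 with intervals across 1. Part of these mRNAs is nearly identical. Of their distinct 31-base sequences, 14.4% in CXCL1, 22.5% in CXCL2 and 9.54% in CXCL3 also occur in transcripts of other genes, mostly of each other, so single counts are uncertain where reads could be assigned to either copy. The 3 genes together summed to 106 reads in Bulk and to 147, 147 and 158 in the slow-cycling libraries. That sum had log2 ratios of 0.37 (-0.01 to 0.74), 0.46 (0.09 to 0.84) and 0.57 (0.21 to 0.94), all under 1. CXCL8 shares no such sequence with another gene.

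IL6 (ENSG00000136244, chromosome 7, 22725884 to 22732002, plus strand) was among the least expressed of the 10 genes, with 12 reads in Bulk against 23 (Claret), 22 (eGFP) and 25 (Violet). All slow-cycling libraries had more reads than Bulk, with ratios of 1.78 (0.85 to 3.93), 1.82 (0.862 to 4.03) and 2.08 (1.01 to 4.54), none of them called. At this depth a difference of 2-fold in IL6 could not be told from none in Claret and eGFP. The first part of IL6 lies opposite the antisense gene AC073072.1 (3 to 10 reads) and STEAP1B (0 to 7 reads), and 17.4% of its 31-base sequences occur in other genes. Use of strand in counting is not given in the sources used here, so reads of that part could not be attributed.

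IL11 (ENSG00000095752, chromosome 19, 55364389 to 55370463, minus strand), a gp130 cytokine known from fibrosis and bone metastasis, stood at 861 (Claret), 661 (eGFP) and 491 (Violet) reads, against 327 in Bulk. Claret was the highest library and Violet the lowest of the slow-cycling libraries. IL11 was 2.45-fold higher than Bulk in Claret (2.15 to 2.79) and 2.01-fold in eGFP (1.75 to 2.30). The eGFP call sat on the threshold of 1 on the log2 scale and ended with a prior count of 5 (0.994), with log2(FPKM + 1) (0.89) and after a GC correction (0.93). In Violet the ratio was 1.5 (1.30 to 1.73), not called.

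LIF (ENSG00000128342, chromosome 22, 30240447 to 30246851, minus strand), a gp130 cytokine known as a stem-cell factor, was the most highly expressed of the 10 genes in every library. Reads of LIF numbered 3469 in Bulk, against 5940 (Claret), 6248 (eGFP) and 5182 (Violet). Bulk was the low library. Its ratios to Bulk were 1.59 (1.53 to 1.66), 1.79 (1.71 to 1.86) and 1.49 (1.43 to 1.56), all below 2 and not called. By FPKM, LIF made up 62.8% of the summed level of the 10 genes in Bulk and 55.4% to 57% in the slow-cycling libraries. The sum itself was 89.6 FPKM in Bulk, against 159, 173 and 145 FPKM. Antisense genes lie across the ends of LIF, AC004264.1 with 42 to 91 reads and LIF-AS1 with 8 to 27 reads.

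CSF2 (ENSG00000164400, chromosome 5, 132073790 to 132076170, plus strand) varied little in count, with 148 reads in Bulk and 174 (Claret), 145 (eGFP) and 138 (Violet) elsewhere. Bulk lay within the range of the slow-cycling libraries. The ratios were 1.09 (0.872 to 1.37), 0.973 (0.768 to 1.23) and 0.93 (0.732 to 1.18), so that the intervals allow ratios from 0.732 to 1.37. CSF2 was second only to LIF in Bulk at 12.1 FPKM. It ranked below LIF, CXCL8 and IL11 in the slow-cycling libraries at 10.9 to 13 FPKM, and in Violet it could not be told from IL11 (11.4 FPKM).

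**Figure D2:**
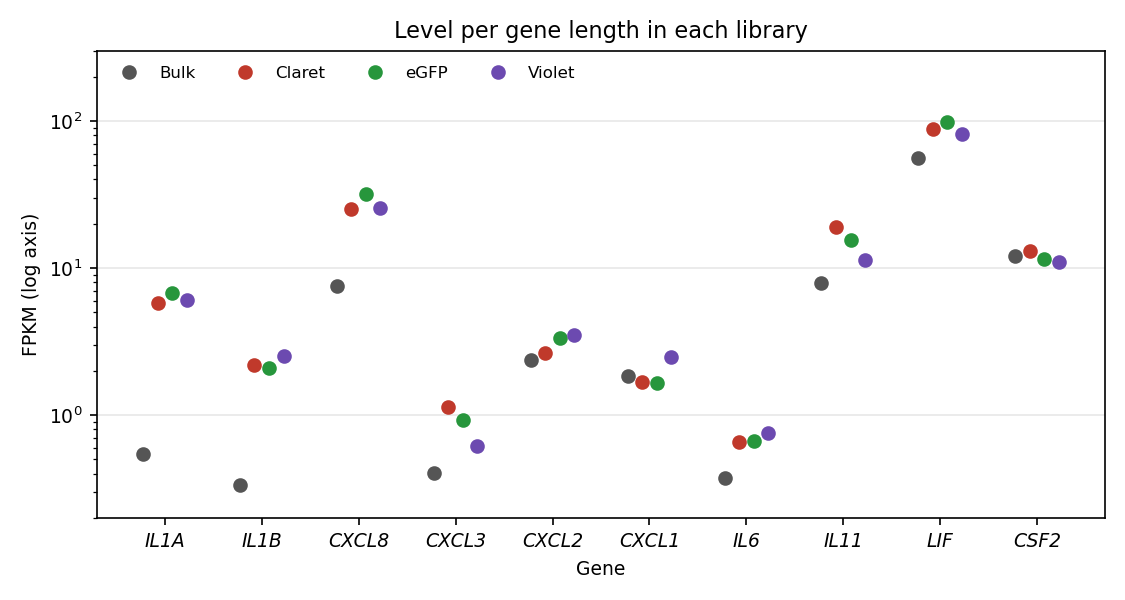
FPKM (log axis) of each of the 10 genes (x axis) in the 4 libraries, 1 point per library. IL1A, IL1B and CXCL8 have the Bulk point well below the other points, the 4 points of CSF2 lie together, and LIF is highest throughout.

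The order of the 10 genes by FPKM differed between Bulk and the other libraries. In Bulk it ran LIF, CSF2, IL11, CXCL8, CXCL2 and CXCL1, followed by IL1A, CXCL3, IL6 and IL1B at 0.333 to 0.545 FPKM, whose neighbouring intervals overlapped. In Claret and eGFP it ran LIF, CXCL8, IL11, CSF2, IL1A, CXCL2, IL1B, CXCL1, CXCL3 and IL6. The intervals of neighbours overlapped from CXCL2 down in Claret and from IL1B down in eGFP. In Violet CXCL3 (0.618 FPKM) stood below IL6 (0.753 FPKM), with overlapping intervals, as had CXCL2, IL1B and CXCL1. IL1A stood at rank 7 in Bulk and at rank 5 in each slow-cycling library.

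Between slow-cycling libraries, 0 of the 10 genes were called in any pair, against 0.713% of all genes kept between Claret and eGFP, 0.788% between Claret and Violet, and 0.932% between eGFP and Violet. At an unadjusted p under 0.05 by the same exact binomial test, the genes with a difference were IL11 and LIF in all 3 pairs, CXCL8 for eGFP against Claret and Violet, and CXCL3 for Claret against Violet (adjusted p = 0.114). These are 3 of the 10 genes in each pair, near the 24.5%, 28.3% and 28.5% of all genes kept that differ at this p between Claret and eGFP, Claret and Violet, and eGFP and Violet. IL11 had the clearest gradation, with Claret 1.22-fold above eGFP (1.10 to 1.35), eGFP 1.34-fold above Violet (1.19 to 1.51) and Claret 1.63-fold above Violet (1.46 to 1.83; exact binomial test, adjusted p = 1.42e-16). CXCL8 was 1.24-fold higher in eGFP than in Violet (1.13 to 1.35) and 0.783-fold as high in Claret as in eGFP (0.718 to 0.853), while Claret and Violet differed by less than the counting error (0.968, 0.883 to 1.06). LIF was 1.20-fold higher in eGFP than in Violet (1.16 to 1.25). IL1A, IL1B, IL6, CXCL1, CXCL2 and CSF2 had intervals that included no difference in all 3 pairs. Variation between cultures was not measured, and may be as large as these differences.

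**Figure D3:**
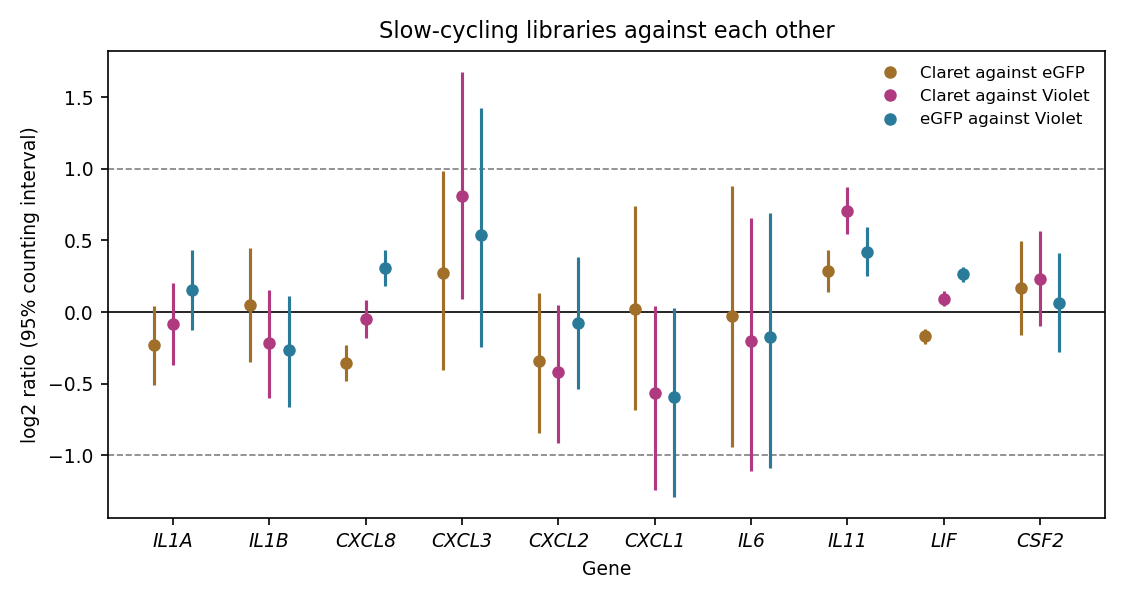
Log2 ratios between pairs of slow-cycling libraries (points) for the 10 genes (x axis), with 95% exact counting intervals (lines) and dashed lines at the 2-fold threshold. No point lies beyond a dashed line. The points of IL11, CXCL3 and CSF2 are above 0 in all 3 pairs, and IL11 alone has all 3 intervals above 0.

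Receptors of these factors were read unevenly. The chemokine receptor CXCR1 and the interleukin-1 antagonist IL1RN had 0 reads in every library and CXCR2 at most 1. By contrast, IL1R1 (146 to 196 reads), its partner IL1RAP (216 to 301), the gp130 gene IL6ST (1757 to 2327), LIFR (660 to 774) and IL6R (248 to 316) were read throughout. Of 13 receptors and antagonists, 7 passed the filter, and IL11RA alone was called, higher in all 3 libraries. This is 1 of 7, against 8.36% of all genes kept. IL11RA went from 86 reads in Bulk to 207, 197 and 182 (log2 ratios 1.14, 1.17 and 1.06). CSF2RA had log2 ratios of 0.99, 0.88 and 0.90, not called, and its partner CSF2RB had 0 to 3 reads.

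Most chemokines outside the 10 genes had few or 0 reads. Of 18, CCL2, CXCL16 and CCL28 passed the filter. CCL2, which attracts monocytes, went the other way from CXCL8, falling from 1779 reads in Bulk to 389, 511 and 442. CCL2 was called lower in all 3, with log2 ratios of -2.29 (-2.46 to -2.14), -1.81 (-1.96 to -1.67) and -2.01 (-2.17 to -1.86). In Bulk CCL2 (57.6 FPKM) stood beside LIF (56.2 FPKM), and in the slow-cycling libraries it stood at 11.5 to 16.1 FPKM. CCL28 was called lower in eGFP (-1.62), with -0.46 in Claret and -0.51 in Violet. CXCL16 had log2 ratios of 0.94, 0.80 and 0.92, not called. Called lower among all genes kept were 6.67%, 7.60% and 7.01%. The neighbours of CXCL8, CXCL1 and CXCL3 in the chromosome 4 chemokine cluster, namely CXCL6, PF4V1, PF4 and CXCL5, had 0 to 4 reads.

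Of 22 other cytokines, 11 passed the filter, of which 4 (Claret), 4 (eGFP) and 3 (Violet) were called higher and 0 lower. Over all genes kept, 11.2%, 11.9% and 11.3% were called higher and 6.67%, 7.60% and 7.01% lower. TNFSF15, a TNF-family ligand, rose from 99 reads in Bulk to 487, 436 and 357 (log2 ratios 2.17, 2.11 and 1.83). CTF1, a further gp130 cytokine, rose from 66 reads to 251, 192 and 187 (1.79, 1.5 and 1.47), and IL32 from 45 to 145, 162 and 127 (1.54, 1.79 and 1.45). IL23A was called in Claret alone (1.69) and IL18 in eGFP alone (1.12), and whether they differed between libraries is not shown by those calls. CSF1, the macrophage growth factor, had 6005 to 8644 reads and log2 ratios of 0.26 to 0.52. TNF had at most 3 reads. Below the filter, OSM, the neighbour of LIF and also a gp130 cytokine, had 1 read in Bulk, against 14, 9 and 8, IL24 had 25 reads in eGFP and 2 to 7 elsewhere, and EBI3 had 17 in Violet and 1 to 4 elsewhere.

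Of 11 genes that act in the maturation or release of interleukin-1, 9 passed the filter, and CASP4 and NLRP1 were called higher in all 3 libraries. Over all genes kept, 8.36% were called higher in all 3. NLRP1, an inflammasome sensor, rose from 678 reads in Bulk to 2424, 2634 and 2190 (log2 ratios 1.73, 1.94 and 1.69). CASP4, a caspase that cleaves gasdermin D, rose from 461 to 1214, 1149 and 932 reads (1.29, 1.30 and 1.01). CASP1, which cleaves the interleukin-1β precursor, had 22 to 38 reads, and the inflammasome adaptor PYCARD had 0 to 3. The pore gene GSDMD was at -0.23, -0.17 and -0.29, not called. Among 8 prostaglandin genes PTGS2, the inducible cyclooxygenase, rose from 105 reads in Bulk to 1153, 1381 and 1207 (log2 ratios 3.33, 3.68 and 3.50), beside 3.29, 3.52 and 3.37 for IL1A. PTGS1 was also called higher in all 3 (1.80, 1.47 and 1.82). PTGES was called lower in eGFP alone (-1.06), with -0.90 in Claret and -0.95 in Violet. In eGFP 7.60% of all genes kept were called lower. Of the 8 prostaglandin genes 7 passed the filter, of which 3 had ratios above 0 in each library. Their median log2 ratios were -0.56, -0.53 and -0.66.

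Of 16 NF-κB subunits and feedback genes, 0 were called in any library, with medians of 0.16, 0.25 and 0.13. At an unadjusted p under 0.05 by the same exact binomial test 13, 14 and 13 of them differed, against 70.3%, 71.3% and 71% of all genes kept, each by less than 2-fold. RELB, a subunit, had log2 ratios of 0.91, 0.98 and 0.74, and NFKBIA, an inhibitor, -0.27, -0.07 and -0.14. TNFAIP3, an early NF-κB target, was at 187 reads in Bulk and 158 to 189 elsewhere. Of 13 AP-1, C/EBP, ATF and EGR factors, 7 were called higher in each library, namely JUNB, JUND, ATF3, ATF4, CEBPB, CEBPG and EGR1. FOSL2 was called lower in eGFP alone (-1.03), with -0.95 in Claret and -0.81 in Violet. For both lists, the shares of all genes kept were 11.2%, 11.9% and 11.3% called higher and 6.67%, 7.60% and 7.01% called lower. CEBPB rose from 1034 reads in Bulk to 2864, 2848 and 2699 (1.36, 1.45 and 1.38), and ATF3 from 34 to 356, 380 and 318 (3.21, 3.40 and 3.15). These lists were drawn up with earlier results of the same libraries known.

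Downstream of gp130, SOCS3, which feeds back on STAT3, was at -0.26, -0.25 and -0.32 and STAT3 at -0.45, -0.37 and -0.40, neither called. Of 14 genes of this list 13 passed the filter. Over all genes kept, 8.36% were called higher in all 3 libraries. SOCS2 was called higher in all 3 libraries, from 182 reads in Bulk to 478, 431 and 472 (1.28, 1.22 and 1.36). PIM1 was at 0.91, 1.03 and 0.82 and was called in eGFP alone.

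**Figure D4:**
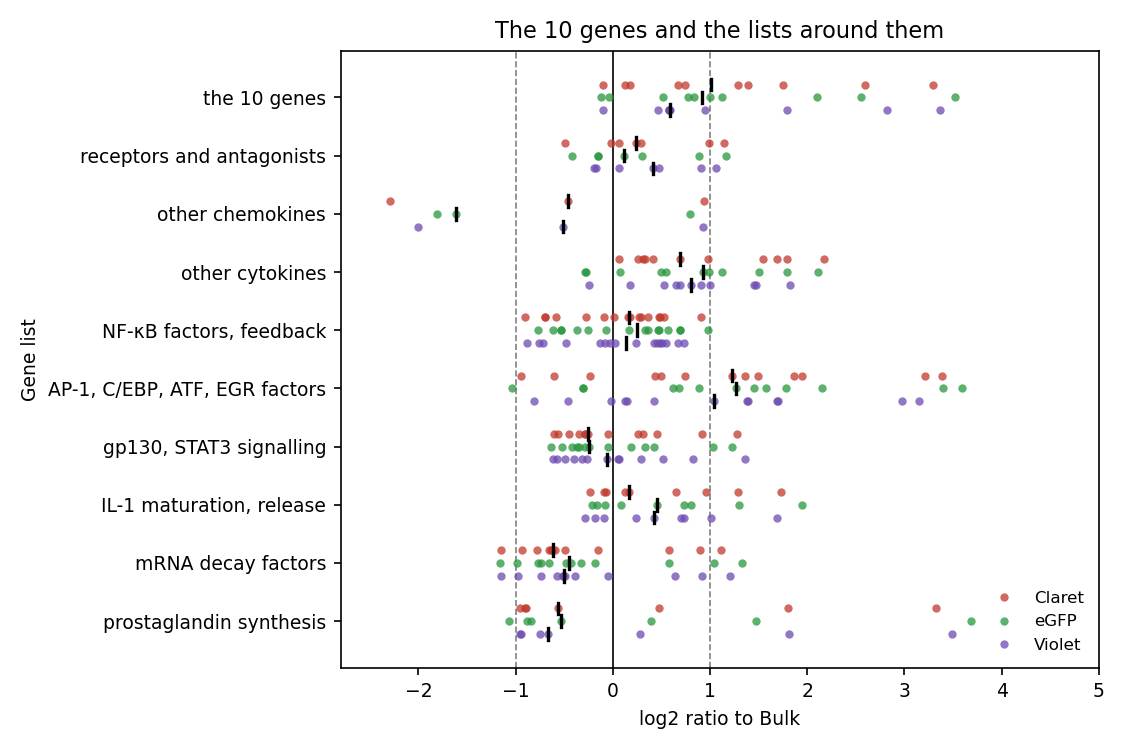
Log2 ratio to Bulk (x axis) of every gene that passed the filter, by list (y axis), in Claret, eGFP and Violet, with the list median as a black bar and dashed lines at 2-fold. The 16 NF-κB genes lie between the dashed lines, whereas 7 of 13 AP-1, C/EBP, ATF and EGR factors lie above the upper one in each library.

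The 10 genes share a feature of their mRNAs. In GENCODE 29 transcripts, the 3′ UTRs of all 10 held 5 to 10 copies of the AU-rich pentamer ATTTA, whereas 28% of 12421 protein-coding genes kept held at least 5. The longer element TTATTTATT, which contains the pentamer, was found in 8 of 10, all but IL1A and IL6, against 8.19% of all these genes. Per kilobase of 3′ UTR, pentamers were most frequent in CSF2 (25.2), IL6 (14.0) and CXCL2 (13.9), against a median of 1.54 over all genes. LIF (2.18) and IL1A (4.34) had the fewest per kilobase. This feature was looked for after the values of the 10 genes had been seen.

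**Figure D5:**
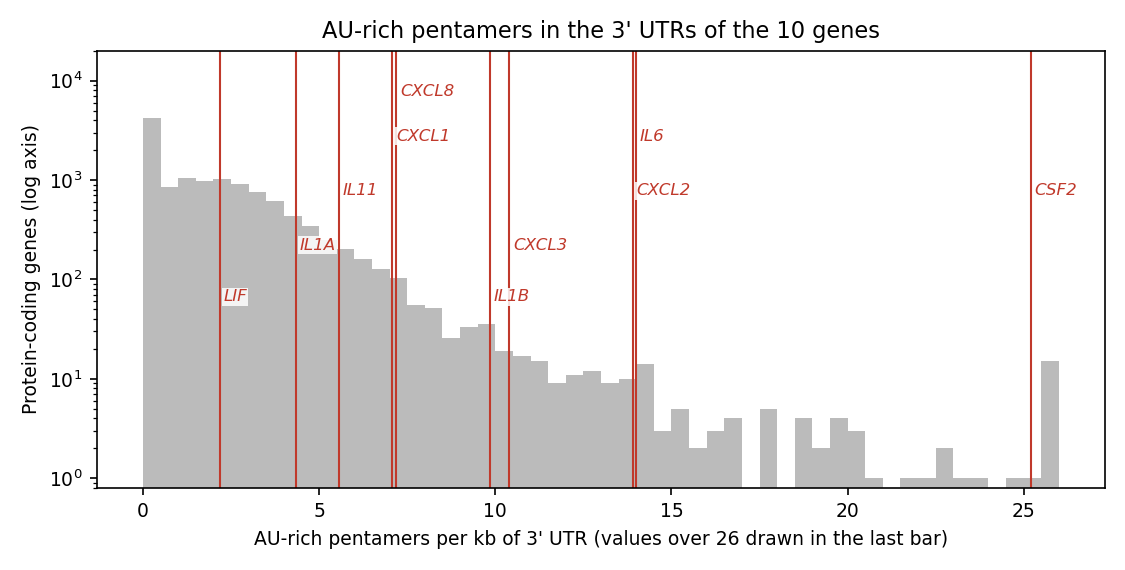
Number of protein-coding genes (log axis) by AU-rich pentamers per kilobase of 3′ UTR (grey bars), with the 10 genes as red lines and values over 26 in the last bar. LIF at 2.18 is nearest to the median of 1.54, and CSF2 at 25.2 is farthest.

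Of 12 decay and stability factors that bind such elements or the same mRNAs, 3 had log2 ratios above 0 in each library. Of all 14585 genes kept, 7240, 7203 and 7305 had ratios above 0, and 8.36% were called higher in all 3 libraries. ZFP36, which encodes the decay factor tristetraprolin, was called higher in all 3, from 194 reads in Bulk to 453, 493 and 450 (1.11, 1.33 and 1.20). Its relative ZFP36L1 was at 0.90, 1.04 and 0.92, near the threshold of 1 in each library, and was called in eGFP alone. KHSRP, a decay factor of AU-rich mRNAs, was called lower in all 3, from 8667 reads in Bulk to 4203, 3914 and 3906 (-1.15, -1.16 and -1.15). ELAVL1, which encodes the stabilising protein HuR, was at -0.78, -0.74 and -0.74, not called.

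Profiles were compared by the distance between centred log2 CPM values over the 4 libraries. Genes of the lists and markers above, PTGS2 among them, were left out, as were genes with a mean under 10 CPM. Genes left out may lie nearer. Of the 9663 protein-coding genes that remained, the nearest was JAK3 for IL1A (distance 0.17) and CAPS for CXCL8 (0.04). It was SPATA2L for IL11 (0.21) and TMEM41B for LIF (0.01). JAK3, a kinase of cytokine receptors, was at 24 reads in Bulk and at 240, 296 and 238. With 4 values per gene such likeness is a description only.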

How the data were processed

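Read counts per gene for 4 libraries, 1 for each group, were used as deposited. HISAT2 2.0.5 and featureCounts 1.5.0-p3 are named, per the submitters' processing notes. How strand and multiply matching reads were handled is not given in the sources used here. The deposited FPKM values derive from these counts: in each library 1 total, 96.93% to 103.5% of the summed counts, links both. Start and end coincide with GENCODE 29 (GRCh38) for 58724 of 58735 genes and for all 10 genes described.

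The 14585 genes with a mean of at least 1 CPM were kept. Library sizes were scaled by TMM (edgeR 4.0.16, R 4.3.3), and log2 ratios used a prior count of 2. With 1 library per group edgeR's quasi-likelihood test cannot estimate a spread, so reads of 2 libraries were compared by an exact binomial test (two-sided), and p-values were adjusted by Benjamini-Hochberg over all genes kept. Folds of single genes are ratios of scaled reads with 95% Clopper-Pearson intervals, without the prior count. The procedure was checked on simulated reads with known changes and counting error only. That is what the test assumes, so the check did not cover variation between cultures. Genes and lists were chosen with earlier results of these data known. Named are the 10 genes, genes of the fixed lists and neighbours. For those of the 10 genes with a mean of at least 10 CPM, the nearest gene by profile outside those lists is also named. Alternatives were scaling, filters, prior counts, log2(FPKM + 1), a GC correction and the treatment field (DESeq2 1.42.0 for size factors).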

Additional observations from a re-analysis of the deposited data

How the results depend on the processing

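No difference has a replicate check, and no paired analysis was possible because each group holds 1 library. Genes with few reads, above all IL6, CXCL1 and CXCL3, are limited by depth. The alternatives other than the treatment field gave 222 values of single genes of the 10 against Bulk. Of these, 216 kept their direction and call, and 0 changed direction. In 6 the call ended: CXCL3 in Claret (0.61) and eGFP (0.46) and IL11 in eGFP (0.89) with log2(FPKM + 1), CXCL3 (0.995) and IL11 (0.994) in eGFP with a prior count of 5, and IL11 in eGFP (0.93) after the GC correction. The first scale shrinks ratios of weakly expressed genes by construction, and the cause under the GC correction was not tested. Accordingly 3 of the 10 genes were called higher in eGFP with a prior count of 5 and with log2(FPKM + 1). IL6 in Violet passed a log2 ratio of 1 with a prior count of 0.5 (1.026, against 0.946) but was not called. The alternative filters leave each ratio unchanged by construction, so values under them could change in call but not in direction.

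A filter at 10 CPM left CXCL8, IL1A, IL11 and LIF, of which 3 were called higher in Claret and 3 in eGFP. Their medians were 1.52, 1.55 and 1.19 (Claret, eGFP, Violet). With log2(FPKM + 1) the median of the 10 genes was 0.62, 0.63 and 0.45. Over all genes, the filter at 10 CPM gave 615, 685 and 608 higher genes in Claret, eGFP and Violet, 634 lower in Claret, and 8, 11 and 7 called for Claret against eGFP, Claret against Violet and eGFP against Violet. With log2(FPKM + 1) there were 589, 633 and 533 higher, 618 lower in Claret, 725 lower in eGFP, and 20, 18 and 20 between slow-cycling libraries.

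With groups from the treatment field, the library titled Violet is the un-gated one, and the libraries titled Bulk, Claret and eGFP are named Claret, eGFP and Violet. Against the library titled Violet, 0 of the 10 genes were called higher in any of these, and 3 were called lower in the library titled Bulk. The medians were -0.587 (titled Bulk), -0.064 (titled Claret) and 0.107 (titled eGFP), so the first and second turned direction. Over all genes 1023, 33 and 42 were then higher and 1641, 82 and 94 lower, in the same order.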
